A study of Mus musculus with 4 samples.

Results

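The genes described here make the inhibitory transmitter GABA or build acetylcholine receptors, and they were followed in sorted hair cells (HCs) of the newborn mouse inner ear. They were chosen by symbol: *Gad1* and *Gad2*, which encode the enzymes that turn glutamate into GABA, *Chrna9* and *Chrna10*, which encode the subunits of the acetylcholine receptor that HCs use, *Chrna1*, which encodes the alpha subunit of the muscle receptor, and *Rapsn*, which encodes the protein that clusters that receptor under the nerve ending. Of these 6 symbols, 5 were found among the 12814 genes of the table, and *Rapsn* was not listed. All cells came from *Atoh1/nGFP* mice on a C57BL/6 background, in which an *Atoh1* enhancer drives a nuclear green fluorescent protein in HCs. Inner ears of several newborn mice were pooled, and flow cytometry separated cells carrying both the fluorescent protein and the epithelial surface protein CD326 (HCs) from epithelial non-sensory cells carrying CD326 alone (ENSCs). Cochlear HCs, cochlear ENSCs, vestibular HCs and vestibular ENSCs gave 1 column each, called a library here, which may be a single library or a mean over replicates, so the values carry no replicate error, differences have no replicate check, and p-values cannot be had. In sorted populations, more cells of a type and more RNA per cell cannot be told apart.

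HCs turn movement of their stereocilia into electrical signals and pass them to sensory neurons with glutamate. In the other direction, efferent neurons of the brainstem end on HCs or on the sensory fibres below them and release acetylcholine. The receptor built from the *Chrna9* and *Chrna10* products lets calcium into the HC, and the calcium opens a neighbouring potassium channel encoded by *Kcnn2*, so that acetylcholine inhibits the cell. In the newborn cochlea efferent fibres contact inner HCs directly for a time, before they move to outer HCs. GABA is made from glutamate in a single step by either decarboxylase and is also present in many efferent endings.

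To show the regulatory sequence that goes with these genes, the 250 bases before each transcription start are given below, read 5′ to 3′ on the gene's strand from the RefSeq promoter table for GRCm38.p6. Capitals mark every match to CANNTG, the E-box read by basic helix-loop-helix factors such as ATOH1 in HCs and the myogenic factors in muscle. The table held 5 of the 6 symbols, and *Rapsn* was not among them. *Chrng* encodes the gamma subunit of the fetal muscle receptor. It is added because its signals, not divided by gene length, lay beside those of *Chrna1* in HCs.

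Chrna9 (chr5:65966874-65967123, plus strand): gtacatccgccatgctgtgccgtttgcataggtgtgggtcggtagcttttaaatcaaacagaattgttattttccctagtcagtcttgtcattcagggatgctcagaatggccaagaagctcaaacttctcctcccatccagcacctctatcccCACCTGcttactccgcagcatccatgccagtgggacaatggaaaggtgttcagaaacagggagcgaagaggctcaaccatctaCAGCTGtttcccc
Chrna10 (chr7:102116714-102116963, minus strand): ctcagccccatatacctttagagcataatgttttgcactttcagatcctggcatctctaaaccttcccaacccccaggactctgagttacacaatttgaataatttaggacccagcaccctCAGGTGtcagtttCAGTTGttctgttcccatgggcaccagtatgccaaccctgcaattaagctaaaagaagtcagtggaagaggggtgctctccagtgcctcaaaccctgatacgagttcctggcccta
Chrna1 (chr2:73580339-73580588, minus strand): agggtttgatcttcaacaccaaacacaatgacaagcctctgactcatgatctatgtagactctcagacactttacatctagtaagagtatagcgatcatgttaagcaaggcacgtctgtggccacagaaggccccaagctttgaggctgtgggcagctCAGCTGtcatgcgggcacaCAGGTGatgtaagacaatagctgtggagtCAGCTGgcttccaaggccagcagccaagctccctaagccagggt
Chrng (chr1:87205561-87205810, plus strand): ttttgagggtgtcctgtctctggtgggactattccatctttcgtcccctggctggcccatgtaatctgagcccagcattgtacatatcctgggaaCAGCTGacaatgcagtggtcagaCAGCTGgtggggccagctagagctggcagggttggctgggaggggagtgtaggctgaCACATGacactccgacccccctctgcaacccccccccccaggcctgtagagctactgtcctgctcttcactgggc
Gad1 (chr2:70561879-70562128, plus strand): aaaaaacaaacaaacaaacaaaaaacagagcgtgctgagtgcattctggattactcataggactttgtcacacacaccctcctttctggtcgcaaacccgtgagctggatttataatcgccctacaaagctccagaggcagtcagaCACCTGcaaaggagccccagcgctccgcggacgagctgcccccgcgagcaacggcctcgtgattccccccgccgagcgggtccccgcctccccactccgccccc
Gad2 (chr2:22622077-22622326, plus strand): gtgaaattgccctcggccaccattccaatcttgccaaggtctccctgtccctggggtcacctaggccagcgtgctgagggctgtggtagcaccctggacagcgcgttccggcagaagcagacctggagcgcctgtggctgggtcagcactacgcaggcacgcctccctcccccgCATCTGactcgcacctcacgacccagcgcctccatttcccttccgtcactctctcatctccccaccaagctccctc

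An E-box of some form stood in all 5 of these member windows, and it also stood in 66.2% of the 32851 windows of this length in the table. The form CAGCTG, which reads the same on both strands, was found in the *Chrna9* window at positions -13 to -8 from the start and in the *Chrna1* window at -92 to -87 and at -44 to -39. It was present in 13.0% of all windows. The *Chrng* window held it at -155 to -150 and at -132 to -127. The form CAGATG, searched on both strands, was found in the *Gad2* window alone, at -76 to -71, against 14.4% of all windows. Both forms are cases of CANNTG. The X-box bound by RFX factors, searched on both strands as the half-sites GTTGCC and GGNAAC with 0 to 3 bases between them, was found in 0 of the 5 member windows and in 0.457% of all windows. These matches describe the letters of the windows.

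The values are quantile-normalized read counts, called signals here, with a floor of 20. They are not divided by gene length, and because of the normalization each column has the same sorted values and the same sum, so the depth of the libraries is unknown. In 3 libraries the lowest signals were ordered by the gene's signals in the other libraries up to a certain value and lost that order above it. Signals up to that value, called the tied range, do not rank a gene. The range ended at 24.25 in cochlear HCs, 22.75 in cochlear ENSCs and 30.5 in vestibular HCs, and no range above 20 was found in vestibular ENSCs. Where the lower of a pair of signals was at 20 or in the tied range, a fold is given as at least the ratio to the end of that range. The sort was looked at on 7 HC marker genes, which include *Atoh1*, *Myo7a* and *Otof*. In both organs the HC signal of all 7 was 3 times the ENSC signal or more, as for 4.99% of all genes. *Atoh1* is no independent check, since its enhancer drove the fluorescent protein used to sort, and the list was chosen with earlier results known. Of 7 supporting cell genes, which encode proteins such as the tectorins, 4 passed 3-fold toward cochlear ENSCs and 3 toward vestibular ENSCs (9.2% and 14.3% of all genes), and none toward HCs (8.39% and 13.8%). Their transcripts were also read in HCs, with *Tecta* at 4249.25 in cochlear HCs and *Tectb* and *Sparcl1* at 2435.5 and 4024.75 in vestibular HCs, above the 1507 and 3930.75 of vestibular ENSCs. Among markers of other cells, the endothelial receptor gene *Kdr* was at 1461.75 in vestibular ENSCs and at or below 29.75 in the other libraries, while the endothelial genes *Pecam1*, *Cdh5* and *Tek* were not listed, and glial genes summed to 574.75 in vestibular HCs and 3680.75 in vestibular ENSCs. The part of such cells in the HC and ENSC values was not tested.

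To see where the genes are used, HCs were compared with the ENSCs of their own organ, and genes were counted as higher or lower from a 3-fold difference on. In the cochlea 4 of the 5 listed genes passed this limit with the higher signal in HCs, as did 8.39% of all genes, and none passed it in the other direction (9.2% of all genes, 17.6% in either direction). In the vestibular system all 5 passed with the higher signal in HCs, as did 13.8% of all genes, and none in the other direction (14.3%, or 28.1% in either direction). The median log2 ratio of the 5 was 3.59 for the cochlea and 3.41 for the vestibular system, against 0.00 over all genes in either organ. Several calls rest on low signals: with every value below 100 raised to 100, *Gad2* and *Chrna10* passed in the cochlea and *Gad1* in the vestibular system. *Gad2*, *Chrna9*, *Chrna10* and *Chrna1* passed in both organs, as did 4.99% of all genes. *Gad1* was the exception, with its higher signal in ENSCs in the cochlea and in HCs in the vestibular system.

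**Figure D1:**
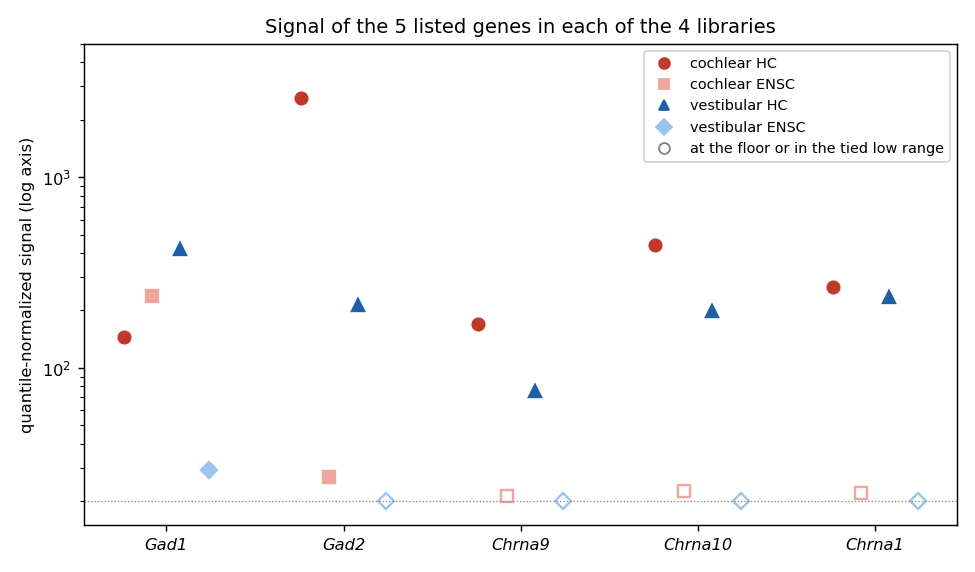
Quantile-normalized signal (log axis) of *Gad1*, *Gad2*, *Chrna9*, *Chrna10* and *Chrna1*, with 1 point per library. Open symbols are signals at the floor of 20 (dotted line) or in the tied range. The *Chrna* genes are open in both ENSC libraries, *Gad2* reaches 2595.75 in cochlear HCs, and *Gad1* has its highest point, 419.5, in vestibular HCs and its next in cochlear ENSCs.

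*Gad2* (ENSMUSG00000026787, chromosome 2, 22477725 to 22549394 in mm9, plus strand) encodes the form of glutamate decarboxylase that sits on synaptic vesicles. Its signal was 2595.75 in cochlear HCs, 26.75 in cochlear ENSCs, 212.5 in vestibular HCs and 20 in vestibular ENSCs. Both HC libraries were above both ENSC libraries, and cochlear HCs stood far above the rest. The cochlear log2 ratio of HCs to ENSCs was 6.60, a 97.0-fold difference, and no gene of the table had a larger one. This fold and rank rest on an ENSC signal just above the tied range. With all values below 100 raised to 100 the log2 ratio was 4.7. In the vestibular system *Gad2* was at least 10.6-fold higher in HCs. In cochlear HCs its signal was higher than or equal to that of 96.2% of all genes, and in vestibular HCs this share was 62.2%.

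*Gad1* (ENSMUSG00000070880, chromosome 2, 70391129 to 70440071, plus strand) encodes the other form, which is found throughout the cytoplasm. Its signal was 145.25 in cochlear HCs, 238.75 in cochlear ENSCs, 419.5 in vestibular HCs and 29.25 in vestibular ENSCs. The order of the libraries thus differed from that of *Gad2*, with vestibular HCs first and cochlear ENSCs second. The log2 ratio of HCs to ENSCs was -0.72 in the cochlea, under 3-fold, and 3.84 in the vestibular system, a 14.3-fold difference. In the cochlea 76.1% of all genes had a larger ratio than *Gad1*, and in the vestibular system 2.04% had.

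The transcript signals of both enzymes were then set side by side within each library. Per kilobase of exon, the *Gad2* signal was 442 and the *Gad1* signal 19.0 in cochlear HCs, so that *Gad2* was 23.2 times *Gad1*. In vestibular HCs the *Gad1* signal per kilobase was 54.9 and the *Gad2* signal 36.2, so that *Gad1* was 1.52 times *Gad2*. In cochlear ENSCs *Gad1* was 6.87 times *Gad2*, at 31.3 and 4.55 per kilobase. The annotated protein-coding transcripts of *Gad1* shared 0 exact stretches of 50 bases, the read length used, with those of *Gad2* or of the nicotinic subunits. Near matches and other genes were not compared.

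*Chrna9* (ENSMUSG00000029205, chromosome 5, 66326160 to 66368565, plus strand) encodes the subunit that can form the HC acetylcholine receptor by itself. Its signal was 170.75 in cochlear HCs, 21.25 in cochlear ENSCs, 75.5 in vestibular HCs and 20 in vestibular ENSCs. Both ENSC signals were at the floor or in the tied range, and both HC signals were above it. *Chrna9* was at least 7.51-fold higher in HCs in the cochlea and at least 3.77-fold higher in the vestibular system. The vestibular call rests on a low signal: with all values below 50 raised to 50 the log2 ratio was 0.59, under 3-fold.

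*Chrna10* (ENSMUSG00000066279, chromosome 7, 109259780 to 109265227, minus strand) encodes the partner subunit, which raises the current of the receptor and does not form one alone. Its signal was 438.5 in cochlear HCs, 22.5 in cochlear ENSCs, 199.5 in vestibular HCs and 20 in vestibular ENSCs. Both HC signals were above those of *Chrna9*, and both ENSC signals were again at the floor or in the tied range. *Chrna10* was at least 19.3-fold higher in HCs in the cochlea and at least 9.97-fold in the vestibular system. Only 0.843% of all genes had a larger cochlear log2 ratio. Per kilobase of exon the *Chrna10* signal was 3.08 times that of *Chrna9* in cochlear HCs, at 174 and 56.6, and 3.17 times in vestibular HCs.

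*Chrna1* (ENSMUSG00000027107, chromosome 2, 73401272 to 73418395, minus strand) encodes the subunit that binds acetylcholine at the neuromuscular junction. Its signal was 265.5 in cochlear HCs, 22 in cochlear ENSCs, 234.5 in vestibular HCs and 20 in vestibular ENSCs. Unlike the HC receptor genes it had nearly the same signal in the HCs of both organs. Its HC signal was at least 11.7-fold above its ENSC signal in either organ. Per kilobase its signal in cochlear HCs, 60.5, was close to that of *Chrna9*, and in vestibular HCs, at 53.5, it was 2.14 times that of *Chrna9*.

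Since *Chrna1* and *Rapsn* are known from muscle, 12 skeletal muscle genes were looked at beside them. Of these 3 were in the table, and *Myod1*, *Myog*, *Acta1* and *Ckm* were among those not listed. In cochlear HCs and cochlear ENSCs all 3 were at 20. In vestibular HCs *Des*, which encodes the muscle intermediate filament, was at 54.25 and *Actc1*, a cardiac actin gene, at 46, and in vestibular ENSCs the fetal myosin gene *Myh8* was at 38. The part of muscle cells in the *Chrna1* signal was not tested. Of 14 neuronal genes 7 were in the table, with summed signals of 9709.25 in cochlear HCs, 10267.75 in vestibular HCs, 5350 in cochlear ENSCs and 459.5 in vestibular ENSCs. Of the 7, 3 passed 3-fold toward HCs in the cochlea and 5 did among vestibular cells, and none passed toward ENSCs, beside 8.39% and 13.8% of all genes toward HCs and 9.2% and 14.3% toward ENSCs. *Nefl* and *Nefm* (neurofilament subunits) and *Snap25* (a vesicle fusion protein) had signals of at least 1291 in both HC libraries and at most 76.75 in ENSCs. *Isl1*, a transcription factor gene, held most of the cochlear ENSC sum, with 3682 in cochlear HCs, 4976.25 in cochlear ENSCs, 2957.25 in vestibular HCs and 339 in vestibular ENSCs. *Tubb3*, *Prph* and *Gap43*, by which neurons are often recognised, were not listed, and *Stmn2* was at 30.75 in cochlear HCs, 81.5 in cochlear ENSCs and in the tied range or at the floor in the vestibular libraries. Their part in the *Gad* and *Chrna* values was not tested.

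The HCs of the organs were then compared directly. Of the 5 listed genes 1, *Gad2*, passed 3-fold toward cochlear HCs (4.21% of all genes) and none toward vestibular HCs (5.09%, or 9.3% in either direction). The *Gad2* difference was 12.2-fold (log2 ratio 3.61). *Chrna10* and *Chrna9* were 2.20-fold and 2.26-fold higher in cochlear HCs, under the threshold, and *Chrna1* differed by 1.13-fold. *Gad1* lay on the other side, 2.89-fold higher in vestibular HCs and just under the threshold. Between the ENSC libraries *Gad1* was 8.16-fold higher in the cochlea (log2 ratio 3.03), the only 1 of the 5 past 3-fold, and under 3-fold once values below 100 were raised to 100. Here 7.8% of all genes were higher, 7.94% lower and 15.7% either. The other 4 had at most 26.75 in either ENSC library.

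**Figure D2:**
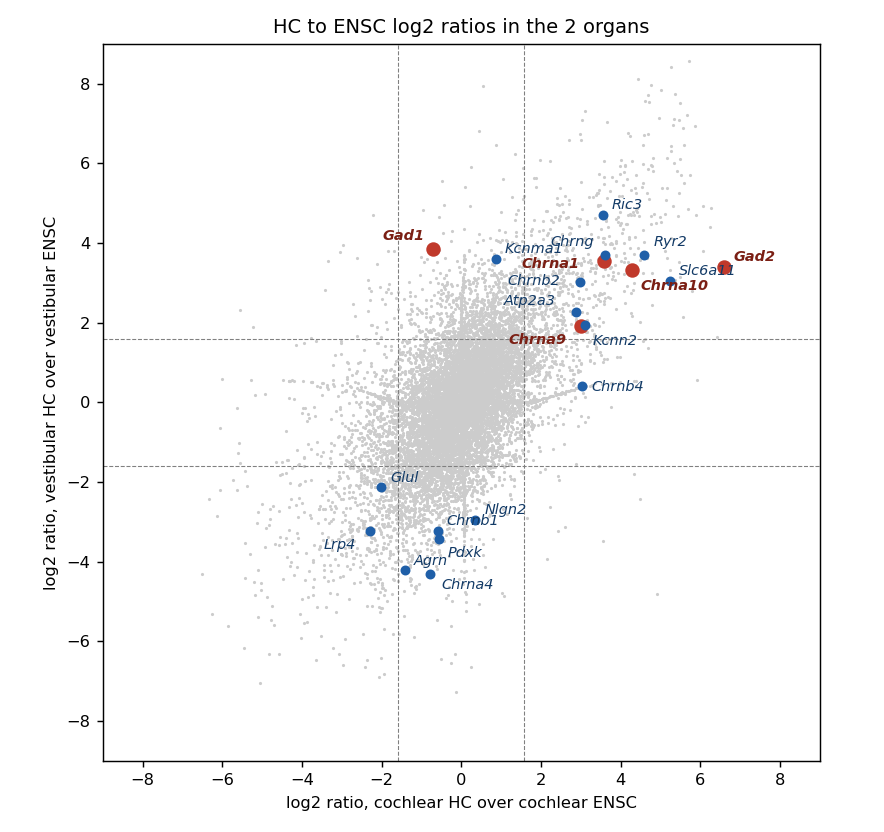
Log2 ratio of HCs to ENSCs in the cochlea (x axis) and in the vestibular system (y axis) for all 12814 genes (grey), the 5 listed genes (red) and the other named genes of the GABA and acetylcholine lists (blue). Dashed lines mark 3-fold. *Gad2*, *Chrna10*, *Chrna1* and *Chrna9* lie past 3-fold in both organs, *Gad2* at the right edge of all genes, and *Gad1* lies at -0.72 and 3.84.

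A receptor needs further subunits, helpers and effectors, and 72 genes of the 2 pathways were followed beside the listed genes. Of these 34 were in the table. In the cochlea 8 of the 34 passed 3-fold toward HCs and 3 toward ENSCs, with a median log2 ratio of 0.14, beside 8.39% and 9.2% of all genes. In the vestibular system 8 passed toward HCs and 7 toward ENSCs, with a median of -0.12, beside 13.8% and 14.3% of all genes.

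Of the 13 other nicotinic subunit genes 6 were in the table. *Chrng* was at 267.25 in cochlear HCs, 22 in cochlear ENSCs, 257.5 in vestibular HCs and 20 in vestibular ENSCs. The HC excess was at least 11.7-fold in the cochlea and 12.9-fold in the vestibular organs. Not divided by gene length, the HC signals lay beside those of *Chrna1*, and the ENSC signals of both genes were at the floor or in the tied range. Per kilobase of exon *Chrng* was 2.3 times *Chrna1* in cochlear HCs and 2.51 times in vestibular HCs. *Chrnb2*, a neuronal beta subunit gene, was at 168 and 163.25 in cochlear and vestibular HCs and at least 7.38-fold and 8.16-fold higher than in ENSCs. *Chrnb4*, another neuronal beta subunit gene, was at 174.25 in cochlear HCs, at least 7.66-fold above ENSCs, and its vestibular HC signal of 26.5 was in the tied range. *Chrnb3* was at 41.5 in cochlear HCs and at 20 elsewhere. The muscle beta subunit gene *Chrnb1* had the opposite order, with 204.5 in cochlear HCs, 307.25 in cochlear ENSCs, 62.25 in vestibular HCs and 580.5 in vestibular ENSCs, a vestibular log2 ratio of -3.22. *Chrna4*, a neuronal alpha subunit gene, was highest in vestibular ENSCs (809.5), against 40.5 in vestibular HCs (log2 ratio -4.32). Of the muscle receptor, genes for the alpha and gamma subunits were thus higher in HCs and the gene for the beta subunit was not, and *Chrnd* and *Chrne*, for the remaining subunits, were not listed, nor were *Chrna2*, *Chrna3*, *Chrna5*, *Chrna6* and *Chrna7*.

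Among genes for receptor assembly and clustering, 6 of 7 were in the table. *Ric3*, which encodes a chaperone of nicotinic receptors, was at 697.75 in cochlear HCs, 59.25 in cochlear ENSCs, 524.25 in vestibular HCs and 20 in vestibular ENSCs. It was 11.8-fold higher in cochlear HCs and at least 26.2-fold higher in vestibular HCs. Of the 6, 1 passed 3-fold toward HCs and 1 toward ENSCs in the cochlea (8.39% and 9.2% of all genes), and 1 and 2 did among vestibular cells (13.8% and 14.3%). *Agrn*, which encodes the clustering signal agrin, was at 359.5 and 964.25 in cochlear HCs and ENSCs and at 223.25 and 4169 in the vestibular ones (log2 ratios -1.42, under 3-fold, and -4.22). *Lrp4*, its receptor gene, was 4.89-fold lower in cochlear HCs and at least 8.56-fold lower in vestibular HCs. *Dok7*, which encodes an activator of the kinase of this pathway, was at 36.25 in vestibular ENSCs and at 20 elsewhere, and *Musk*, the gene of that kinase, was not listed.

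Downstream of the receptor, 5 of 7 genes for calcium-gated channels and calcium stores were in the table. *Kcnn2*, the potassium channel gene that completes efferent inhibition, was at 185 in cochlear HCs, 21.5 in cochlear ENSCs, 77 in vestibular HCs and 20 in vestibular ENSCs. The HC excess was at least 8.13-fold in the cochlea and 3.85-fold in vestibular organs, the latter resting on a low HC signal. *Kcnma1*, the gene of a second calcium-gated potassium channel, was distributed otherwise, with 40.25 in cochlear HCs and 485.5 in vestibular HCs (log2 ratio -3.59) and 39.75 in vestibular ENSCs. *Ryr2*, a calcium release channel gene, was at 544.5 and 257.25 in cochlear and vestibular HCs and at least 23.9-fold and 12.9-fold higher than in ENSCs. *Atp2a3*, a calcium store pump gene, had an HC excess of at least 6.91-fold in the cochlea and of 4.84-fold in vestibular organs. Its vestibular HC signal was low, at 98. *Atp2a2*, the widely used pump gene, had signals from 2388.25 to 4413.75. Of the genes that make and clear acetylcholine, *Chat*, *Slc18a3* and *Slc5a7*, for synthesis, vesicle loading and choline uptake, and *Ache*, for breakdown, were not listed. *Bche*, a related esterase gene, had signals from 1560.75 to 3105.25 and was under 3-fold in both organs. None of the 5 muscarinic receptor genes was listed.

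**Figure D3:**
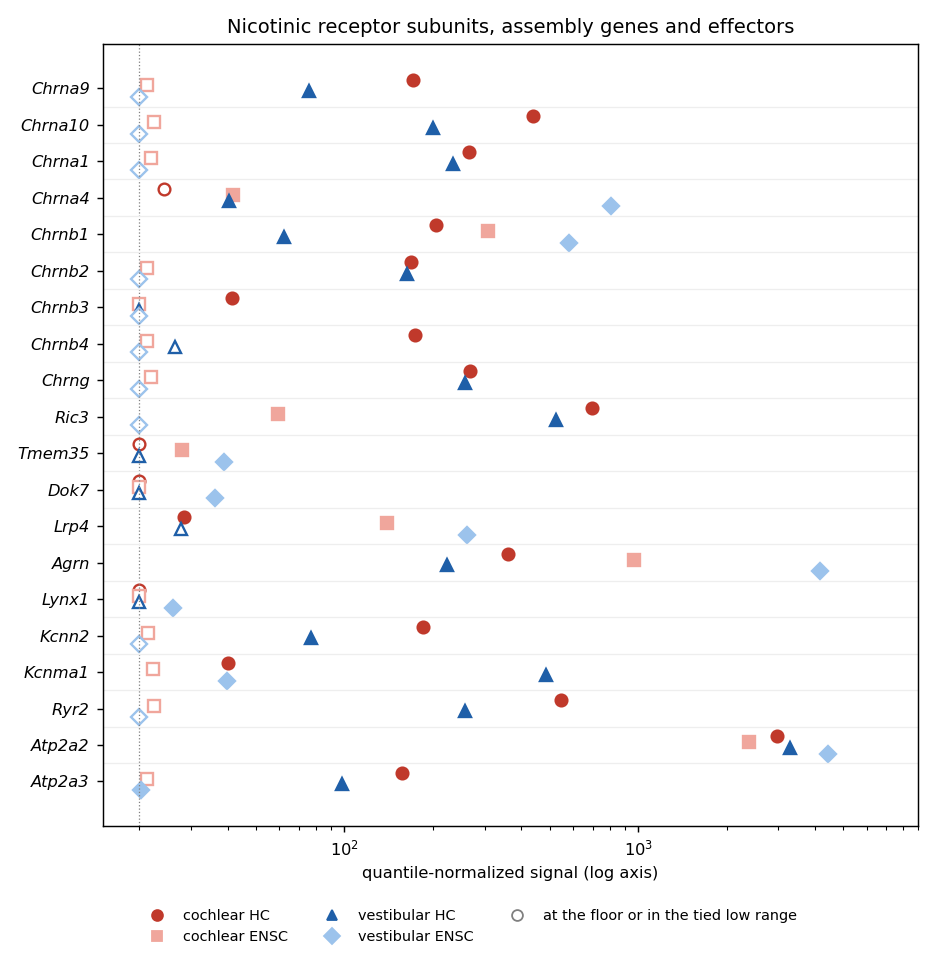
Quantile-normalized signal (log axis) of the nicotinic subunit, assembly and effector genes in the table, 1 point per library, with open symbols at the floor or in the tied range. *Chrna9*, *Chrna10*, *Chrna1*, *Chrnb2*, *Chrng*, *Kcnn2* and *Ryr2* have filled HC symbols and open ENSC symbols, while *Chrna4*, *Agrn* and *Lrp4* lie highest in vestibular ENSCs.

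Of 12 genes that handle GABA and its precursor, 8 were in the table. *Slc32a1*, which encodes the transporter that loads GABA into vesicles, was not listed. *Slc6a11*, a plasma membrane GABA transporter gene, was at 853.75 in cochlear HCs, 22.5 in cochlear ENSCs, 166.75 in vestibular HCs and 20 in vestibular ENSCs. The HC excess was at least 37.5-fold in the cochlea and 8.34-fold in vestibular organs, and, as with *Gad2*, its signal was higher in cochlear than in vestibular HCs. *Abat*, the gene of the enzyme that breaks GABA down, was at 96.5 in cochlear HCs and 39.75 in cochlear ENSCs. In vestibular HCs it was in the tied range. *Glul*, whose product turns glutamate into glutamine, was lower in HCs, at 249.75 against 1013 in the cochlea and 440.25 against 1930.75 in the vestibular system (log2 ratios -2.02 and -2.13). *Pdxk*, whose product makes the cofactor of glutamate decarboxylase, was 10.8-fold lower in vestibular HCs. Between the HC libraries 3 of these 8 genes passed 3-fold toward the cochlea, namely *Slc6a11*, *Abat* and *Aldh9a1*, and 0 passed toward the vestibular side, beside 4.21% and 5.09% of all genes.

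Of 21 genes for GABA receptors and their anchoring proteins, 8 were in the table. In the cochlea 0 of the 8 passed 3-fold toward HCs and 1 toward ENSCs, and in the vestibular system the counts were also 0 and 1, beside all-gene shares of 8.39% and 9.2% for the cochlea and 13.8% and 14.3% for the vestibular system. The cochlear gene was *Gabra3*, whose HC signal was at the floor, so that its difference was at least 2.61-fold by the end of the tied range. Among alpha subunit genes of the GABA-gated chloride channel, *Gabra4* was at 52.75 in vestibular HCs and at 20 elsewhere, *Gabra3* was at 63.25 in cochlear ENSCs and at most 20.25 elsewhere, and *Gabra2*, *Gabra5* and *Gabra6* were not listed. *Gabbr1*, which encodes a subunit of the metabotropic GABA receptor, had signals from 352.5 to 615 and was under 3-fold in both organs, and its partner gene *Gabbr2* was not listed. *Nlgn2*, for an adhesion protein of inhibitory synapses, was 7.75-fold lower in vestibular HCs.

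**Figure D4:**
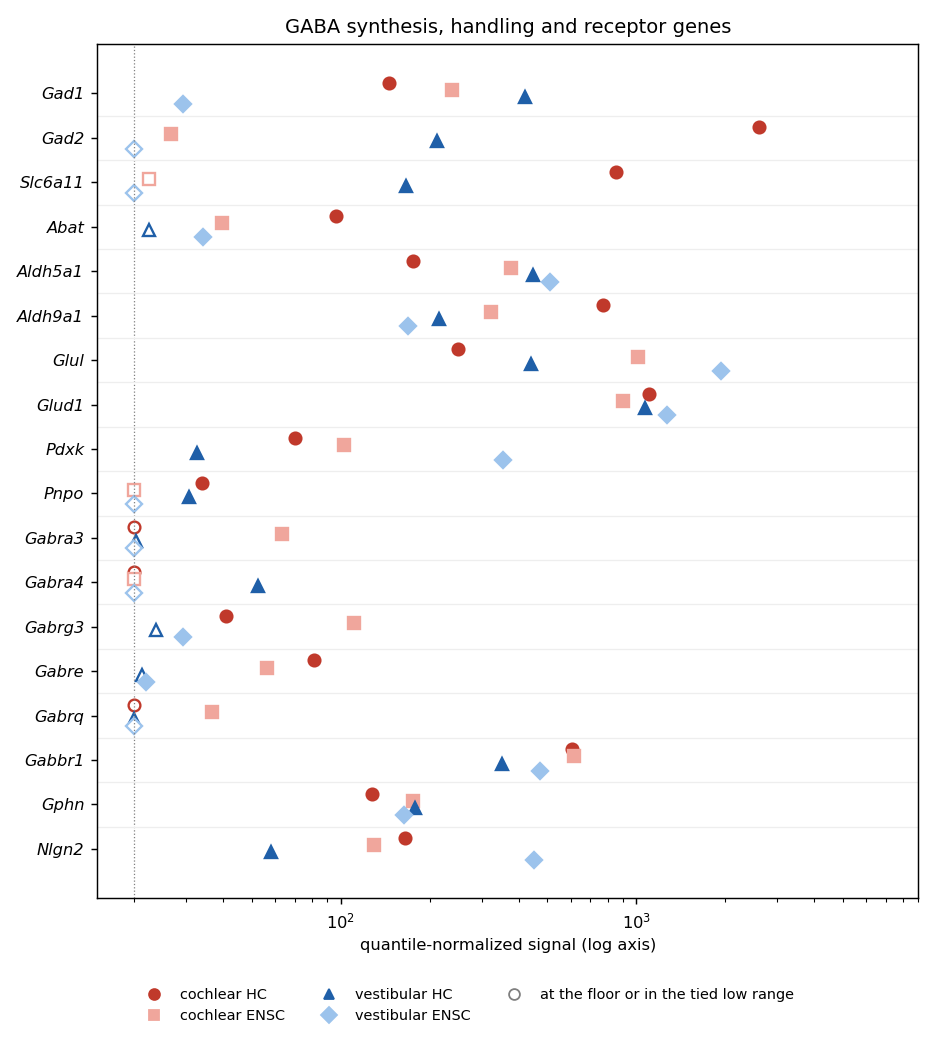
Quantile-normalized signal (log axis) of *Gad1*, *Gad2* and the GABA handling and receptor genes in the table, 1 point per library, with open symbols at the floor or in the tied range. *Gad2* and *Slc6a11* have their highest signals in cochlear HCs, and *Glul* lies higher in the ENSCs than in the HCs of either organ.

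To ask which genes varied like the listed ones, each gene's 4 log2 signals were centred on their mean and compared with those of 8732 protein-coding genes that reached 100 in at least 1 library. The measure was the root mean square difference over the 4 libraries, in log2 units. For *Chrna9* the nearest gene was *Kcnn2* (0.045), followed by *Nrxn2* (0.074), which encodes a synaptic adhesion protein, and *Fcho1* (0.092), an endocytosis gene. For *Chrna10* the nearest were *Insc* (0.055), a gene of oriented cell division, *Tmc2* (0.087), a mechanotransduction channel gene, and *Cib2* (0.105), which encodes a partner of that channel. For *Chrna1* they were *Tmcc2* (0.050), *Chrng* (0.057) and *Bsn* (0.087), a gene of the presynaptic scaffold. Both ENSC signals of these *Chrna* genes were at the floor or in the tied range, so their patterns rest mainly on the 2 HC signals, and 201, 87 and 157 genes lay within 0.5 of *Chrna9*, *Chrna10* and *Chrna1*.

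*Gad2* had few genes near it. *Fer1l6* (0.242), *Galnt13* (0.397) and *Slc7a14* (0.434) were the 3 genes within 0.5. *Fer1l6*, of the ferlin family to which the HC gene *Otof* belongs, was at 2230.75 in cochlear HCs and 276.75 in vestibular HCs. For *Gad1* the nearest were *Ttc30b* (0.178), a gene of intraflagellar transport, *Dlgap1* (0.234), a gene of the postsynaptic scaffold, and *Tmem26* (0.241). *Ttc30b* was at 502.5 and 669.25 in cochlear HCs and ENSCs and at 1426.5 and 116 in the vestibular ones. Among the listed genes themselves *Chrna10* and *Chrna1* were closest (0.357) and *Gad1* and *Gad2* furthest apart (2.668).

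**Figure D5:**
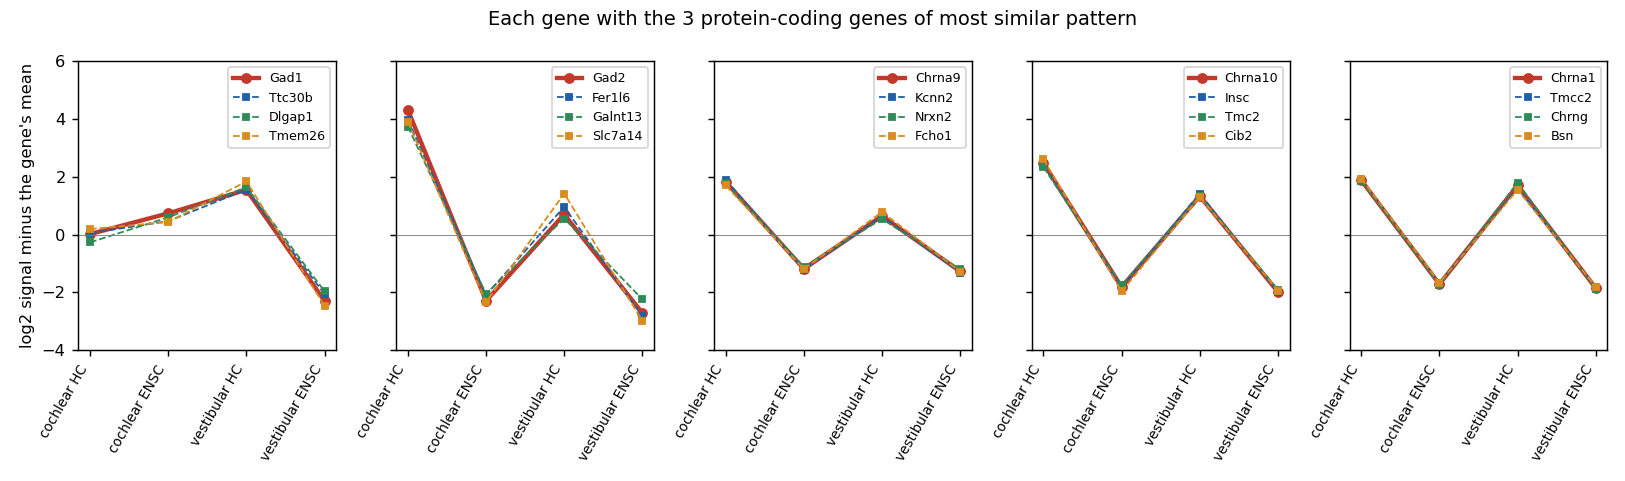
Log2 signal minus the gene's mean over the 4 libraries for *Gad1*, *Gad2*, *Chrna9*, *Chrna10* and *Chrna1* (red) and the 3 protein-coding genes with the smallest root mean square difference from each. The *Chrna* genes and their neighbours alternate between high HC and low ENSC values, and *Gad1* and its neighbours have their lowest value in vestibular ENSCs.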

How the data were processed

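RNA of sorted cells, polyA RNA per the labels and total RNA per the methods, was amplified (NuGEN Ovation) and sequenced. Reads were cut by the authors to their first 50 nt, placed on mm9 by TopHat and assigned to ENSEMBL genes by HTSeq. By the study's account, the authors kept genes covered by at least 20 reads, quantile-normalized the 4 columns and then set a floor of 20. The deposited values are therefore a signal and not counts. A floor set before the normalization would leave tied signals above 20, as were seen here, so the order of these steps is uncertain. Tool versions, annotation release and strand setting are not given in the sources used here. Triplicates are mentioned in the design text, whereas each population has 1 column in the table used here. Columns were matched to samples by title, with columns named for non-HCs taken as the ENSCs of that organ.

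Log2 ratios of the deposited values were formed without a pseudocount (Python 3.11.15, pandas 2.3.3, statsmodels 0.14.6), and ratios of at least 3 either way were counted. Positions, exonic length and GC content came from GENCODE for NCBIM37, which is mm9. Of 12814 identifiers 12799 were found there. Promoter windows are RefSeq sequences of another build, GRCm38.p6, with their own coordinates. The steps were tested on simulated data.

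The listed genes and the pathway and marker lists were chosen with earlier results of these data known. The text names the listed genes, pathway genes at least 3-fold apart between HCs and ENSCs in either organ with a signal of at least 100, *Slc32a1*, *Kcnn2*, *Chat*, *Ache*, the nicotinic subunits, and 3 genes of similar pattern per listed gene. Other names were chosen after their values were seen. Some pathway genes are not reported here and were left out of the list counts. Alternatives were floors of 50 and 100, pseudocounts of 20 and 100, centring on the median, the tied range raised to its end, correction for length and GC content (local regression, span 0.3, 2 robust iterations), thresholds of 2 and 5, and genes reaching 100.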

Additional observations from a re-analysis of the deposited data

Results flagged for a closer look

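Of the 29 listed and pathway genes that reached a signal of 100, 2 (6.9%) had an HC to ENSC ratio past 3-fold in 1 organ and of the opposite sign in the other, beside 7.09% of all 9183 genes that reached 100. With 1 column per population the difference between organs was not tested for either of them. *Gad1* had a cochlear log2 ratio of -0.72 and a vestibular one of 3.84, a vestibular minus cochlear difference of 4.56. *Nlgn2* had 0.35 and -2.95, a difference of -3.30. For *Gad1* the cochlear ratio was under 3-fold and the vestibular one past it under all 7 alternatives for single ratios.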

How the results depend on the processing

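No paired analysis was possible because each population had 1 column and no replicate numbers, and for the same reason no library could be left out. Under the 7 alternatives for single log2 ratios, 0 of the listed genes' calls changed sign. Most lost calls came with settings that damp low signals. With a floor of 100, and likewise with a pseudocount of 100, the listed genes at least 3-fold higher in HCs numbered 2 for the cochlea (from 4) and 1 for the vestibular system (from 5), and the listed genes higher in cochlear than in vestibular ENSCs numbered 0 (from 1). *Gad2* and *Chrna10* in the cochlea and *Gad1* in the vestibular system kept their calls under these settings. *Chrna9* in the vestibular system was also under 3-fold with a floor of 50 or a pseudocount of 20. With a threshold of 2 the listed genes higher in cochlear HCs than in vestibular HCs numbered 3, and 1 was lower, beside 10.5% of all genes in either direction alone. Pathway genes higher in HCs numbered 3 (cochlear, from 8) and 2 (vestibular, from 8) with a floor of 100, and 4 and 2 with a pseudocount of 100. The vestibular number was 6 with a floor of 50 or a pseudocount of 20. Pathway genes lower in cochlear HCs numbered 1 (from 3) with a floor of 50, a floor of 100 or a pseudocount of 100, 6 with a threshold of 2 and 0 with a threshold of 5. With a threshold of 5 the listed genes higher in vestibular HCs numbered 4 (from 5) and the pathway genes 6 (from 8). Vestibular ratios were lower for GC-rich genes, with a Spearman's rho of -0.395, and so were ratios of cochlear to vestibular ENSCs (-0.453). Each rho covers the genes above the floor in both libraries, which are not independent. Correction for length and GC content moved *Chrna10* most, from a vestibular log2 ratio of 3.32 to 4.25, and left the ENSC log2 ratio of *Gad1* at 2.96 (from 3.03). The depth of the libraries is unknown, so no counting interval can be given.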

Other observations

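The ENSC libraries of the 2 organs were also compared for the GABA receptor and anchoring genes, with no test. Of the 8 in the table, 2 were at least 3-fold higher in cochlear ENSCs (7.8% of all genes) and 1 was lower (7.94%). *Gabrg3*, a gamma subunit gene, was at 110.75 in cochlear and 29.25 in vestibular ENSCs (log2 ratio 1.92), and *Gabra3* was at least 3.16-fold higher in the cochlea. *Nlgn2* was lower, at 129.5 and 449.5 (-1.80). Of the acetylcholine genes *Chrna4* had the largest difference between the ENSC libraries, with signals of 41.75 (cochlear) and 809.5 (vestibular) and a log2 ratio of -4.28, followed by *Agrn* with 964.25 and 4169 (-2.11). Ratios between these libraries followed GC content across the 10483 genes above the floor in both (Spearman's rho -0.453). The exonic GC content was 42.7% for *Gabrg3* and 43.1% for *Gabra3* but 60.5% for *Nlgn2*, 55.3% for *Chrna4* and 57.8% for *Agrn*. Markers of other cells also differed between these libraries: *Kdr* was at 29 in cochlear and 1461.75 in vestibular ENSCs, and the part of GC content and of such cells in these values was not tested.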
